A study of Mus musculus with 24 samples.

Results

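The genes described here are 10 genes of the regulated secretory pathway, chosen by symbol as prohormone-processing enzymes, their binding partners and granins: Pcsk1, Pcsk2, Cpe, Pam, Scg5, Pcsk1n, Chga, Chgb, Scg2 and Scg3. They are 10 of the 35191 genes in the count table, and all 10 were detected in 24 of 24 libraries and passed the filter on low counts. The study sequenced RNA from mouse pituitary, 3 libraries in each of 8 groups that combine both sexes with 4 genotypes. Wild type pituitaries carried neither Cre nor floxed Egr1 (genotype label wt (-)), and Cre controls carried Cre alone (wt (+)). Egr1cKO controls carried floxed Egr1 without Cre (FF (-)), and Egr1cKO pituitaries carried floxed Egr1 with Cre (FF (+)). Egr1 is an immediate early gene whose product is a zinc-finger transcription factor, and Egr1cKO stands for its conditional knockout. The sources used here give no Cre driver, no deleted exon and no age of the mice. The library numbers in the titles run from 4042 to 4056 for the unfloxed genotypes and from 4935 to 4955 for the floxed ones, so floxed Egr1 and number series cannot be told apart.

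Peptide hormones are made as inactive precursors and are cut, trimmed and packed inside dense-core granules. The convertases encoded by Pcsk1 and Pcsk2 cut precursors at pairs of basic residues, carboxypeptidase E (Cpe) removes the exposed basic residues, and Pam amidates the peptide end. Scg5 encodes the chaperone that the Pcsk2 convertase needs to mature, and Pcsk1n encodes proSAAS, an inhibitor of the Pcsk1 convertase. Chromogranins A and B (Chga, Chgb) and secretogranins II and III (Scg2, Scg3) are acidic granule proteins that aggregate with hormones. In the pituitary, corticotropes use the Pcsk1 product to cut the Pomc precursor to ACTH, while melanotropes of the intermediate lobe also use the Pcsk2 product and carry the cut further to alpha-MSH. Scg2 and Chga are known for high expression in gonadotropes.

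The 250 bases before the transcription start are printed for 5 of these genes, because the largest differences below concern them and because their windows hold matches to the cAMP response element or to the EGR motif. Sequences are from RefSeq (GRCm38.p6), 5′ to 3′ on the strand of the gene, with every match in capitals. RefSeq windows were at hand for 9 of the 10 genes, with 2 windows for Pam, and none for Cpe. Distances are from the RefSeq start, which need not equal the start of the gene span given below, taken from GENCODE. The Chgb window lies inside its span, and the windows of Scg2 and Pcsk1 reach into theirs. Positions are Scg2 chr1:79440027-79440276 (minus strand), Chgb chr2:132781392-132781641, Pcsk1 chr13:75089607-75089856, Chga chr12:102554691-102554940 and Pcsk2 chr2:143545883-143546132, the last 4 on the plus strand.
Scg2: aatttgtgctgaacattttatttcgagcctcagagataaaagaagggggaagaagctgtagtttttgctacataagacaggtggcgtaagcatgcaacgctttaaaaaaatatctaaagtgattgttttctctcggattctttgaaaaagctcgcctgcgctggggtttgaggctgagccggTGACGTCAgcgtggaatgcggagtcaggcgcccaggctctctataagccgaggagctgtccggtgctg
Chgb: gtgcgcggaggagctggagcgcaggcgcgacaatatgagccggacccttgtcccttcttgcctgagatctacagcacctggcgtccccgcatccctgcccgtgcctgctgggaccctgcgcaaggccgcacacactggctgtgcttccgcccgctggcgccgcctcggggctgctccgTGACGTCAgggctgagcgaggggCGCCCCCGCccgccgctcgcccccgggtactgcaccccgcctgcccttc
Pcsk1: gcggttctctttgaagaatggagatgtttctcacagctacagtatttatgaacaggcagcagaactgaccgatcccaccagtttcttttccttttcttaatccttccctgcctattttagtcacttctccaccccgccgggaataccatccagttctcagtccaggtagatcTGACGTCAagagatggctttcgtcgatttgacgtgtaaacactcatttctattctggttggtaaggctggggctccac
Chga: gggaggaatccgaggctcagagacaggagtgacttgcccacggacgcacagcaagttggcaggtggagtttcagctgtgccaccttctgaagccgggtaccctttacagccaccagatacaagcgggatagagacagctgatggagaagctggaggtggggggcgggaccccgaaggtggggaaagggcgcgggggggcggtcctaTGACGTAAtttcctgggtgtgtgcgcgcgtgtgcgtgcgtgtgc
Pcsk2: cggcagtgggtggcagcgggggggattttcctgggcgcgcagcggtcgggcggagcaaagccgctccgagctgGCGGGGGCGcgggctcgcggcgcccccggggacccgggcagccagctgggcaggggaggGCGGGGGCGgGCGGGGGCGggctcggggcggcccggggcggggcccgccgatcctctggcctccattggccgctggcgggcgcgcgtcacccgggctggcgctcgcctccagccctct

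In all, 4 motifs were searched on both strands from 250 bases before to 50 bases after each start. The palindrome TGACGTCA, the full cAMP response element, began 68 bases before the start of Scg2, 72 before that of Chgb and 78 before that of Pcsk1. It was present in 1.79% of the 32851 RefSeq windows of that length. The variant TGACGTAA began 44 bases before the start of Chga and was present in 0.499% of windows. The EGR motif GCGGGGGCG occurred at 3 places in Pcsk2, beginning 177, 118 and 108 bases before the start, and once on the other strand in Chgb, 49 bases before it, where it is printed as CGCCCCCGC. That motif was present in 2.91% of windows. Its second form, GCGTGGGCG, was present in 0.612% of windows and in no window of these genes. A match in letters does not show that a factor bound there.

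**Figure D1:**
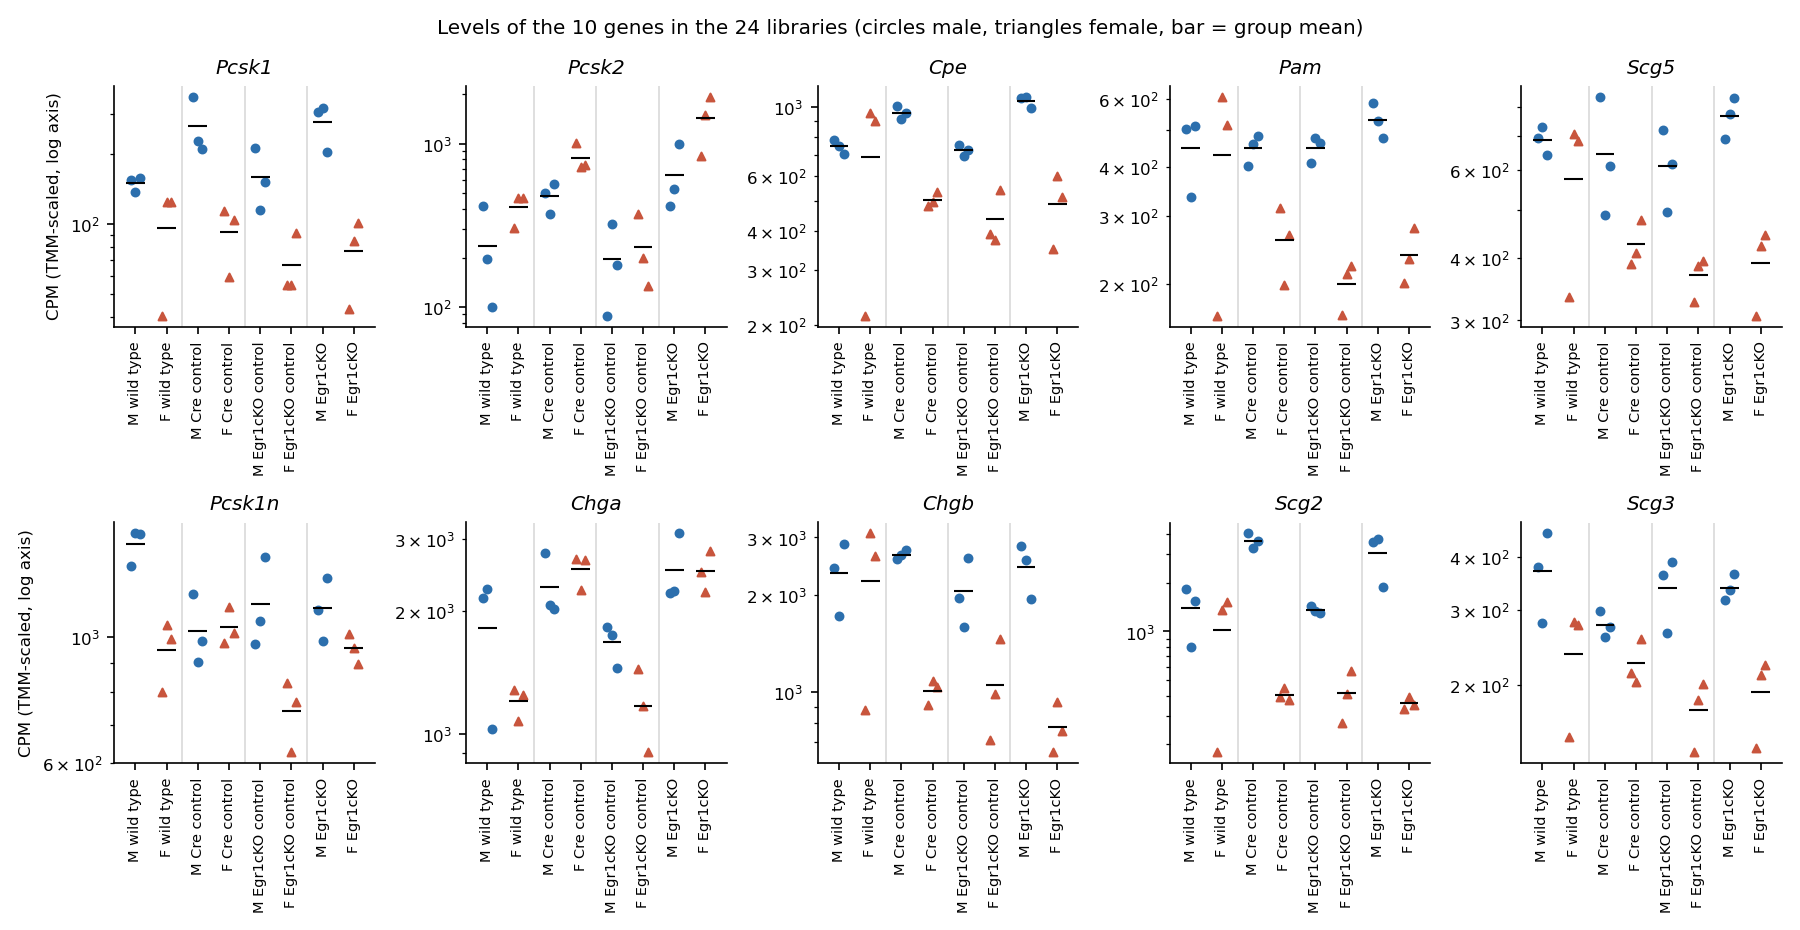
Levels in CPM (counts scaled to library size by trimmed mean of M-values) on a log axis for the 10 genes in the 24 libraries. Circles are male libraries, triangles female libraries, and the bar is the mean of the 3 libraries in a group. Scg2 spans 178 to 4050 CPM and Pcsk2 spans 88.0 to 1928 CPM.

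Levels are given in CPM, counts scaled to library size by trimmed mean of M-values, and, where genes are compared with each other, as CPM per kilobase of exon. By the median over 24 libraries the order was Chga (767 CPM per kilobase), Chgb (666), Scg2 (524), Pcsk1n (457), Scg5 (352), Cpe (275), Scg3 (98.2), Pcsk2 (55.5), Pam (34.2) and Pcsk1 (22.3). The ranges over libraries overlapped between neighbours at each step of this order. The granins other than Scg3 thus headed the order, and both convertases and Pam were at its end. The length used counts all annotated exon bases of a gene. In CPM without it, the medians of Pcsk2 (439) and Pam (407) were above that of Scg3 (269), so their place below Scg3 depends on the length. Scg2 and Pcsk2 varied by far the most, 22.8-fold and 21.9-fold from the lowest to the highest library. Pcsk1 ranged 8.76-fold, Cpe 5.04-fold and Chgb 4.74-fold. The remaining 5 genes ranged between 2.43-fold (Pcsk1n) and 3.67-fold (Pam).

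Total counts ran from 15486069 to 26255343 per library, and the 10 genes together took 0.373% to 1.55% of them. That summed share was 0.373% to 0.965% in the 12 female libraries (median 0.693%) and 0.743% to 1.55% in the 12 male libraries (median 1.10%). Mitochondrially encoded genes took 2.13% to 10.4% of counts in females and 2.08% to 4.80% in males. Female wild type libraries were unlike each other: replicate 1 had a mitochondrial share of 10.1% and a summed share of the 10 genes of 0.373%, while replicates 2 and 3 had 2.13% and 2.7%, with 0.934% and 0.965%. Egr1 had 7.55 to 238 CPM in libraries labelled Egr1cKO and 9.79 to 51.1 CPM in Egr1cKO controls, so it was no lower than in those controls. In Cre controls its mean was 195 CPM in males (SD 253) and 214 CPM in females (SD 236). In Egr1cKO the mean was 134 CPM in males (SD 93.1) and 65.5 CPM in females (SD 84.4). A count over the whole gene does not test whether an exon is missing. Titles number the libraries but do not say that each came from 1 animal, so p-values measure the spread between these libraries. The labelled cell type is endocrine, and markers of the hormone cells and of the posterior lobe were both present. In bulk RNA, fewer cells of a type and less RNA per cell cannot be told apart.

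In the comparison of the sexes, averaged over the 4 genotypes, 8 of the 10 genes were lower in females and 1 was higher. Over all 21927 genes tested, 21.7% were called at an adjusted p of 0.05, 11.7% lower and 9.99% higher. Scg2 fell most, followed by Pcsk1 and Chgb, and then Pam, Cpe, Scg3, Scg5 and Pcsk1n. The median log2 fold change of the 10 genes was -0.70, beside -0.06 over all genes.

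**Figure D2:**
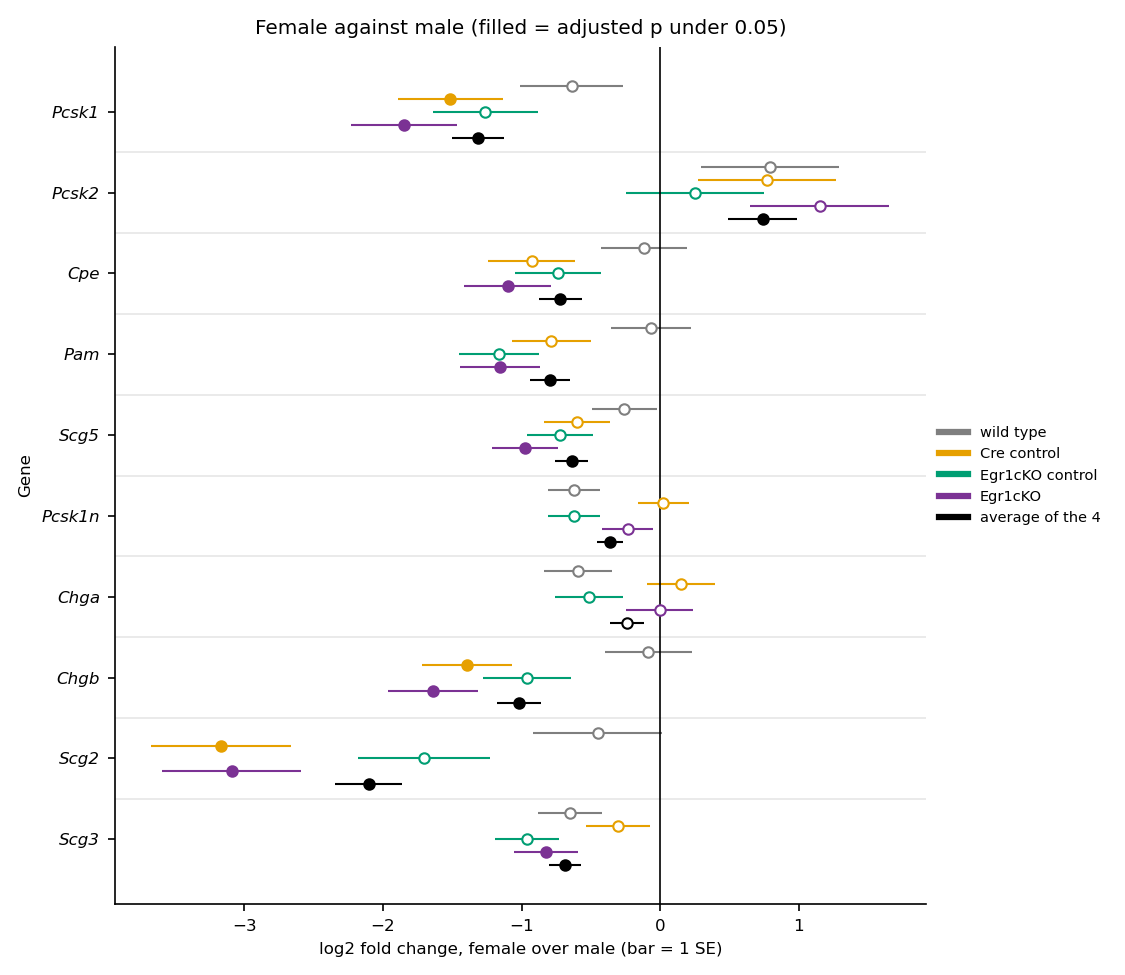
Log2 fold change of females over males for the 10 genes within each genotype and averaged over the 4 genotypes, with bars of 1 SE and filled points where the adjusted p is under 0.05. In the average, Scg2 lies furthest to the left at -2.10 and Pcsk2 alone lies to the right, at 0.74.

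Scg2, the precursor of the peptide secretoneurin (chromosome 1, 79434669 to 79440120, GRCm38), had 4050, 3287 and 3611 CPM in male Cre controls and 395, 448 and 375 CPM in female ones. It had 3564, 3720 and 1876 CPM in male Egr1cKO and 332, 392 and 350 CPM in female Egr1cKO. Every male library exceeded every female one in both of these genotypes, an order that 18% of all genes had in Cre controls and 23.5% in Egr1cKO. Without Cre, the male levels were 1428, 1340 and 1295 CPM in Egr1cKO controls and 1824, 799 and 1541 CPM in wild type. Female Egr1cKO controls had 270, 408 and 567 CPM, again all below the males. Female wild type libraries had 178, 1349 and 1516 CPM, so that replicate 1 was the lowest of all 24 and replicates 2 and 3 were among the male values. The average log2 ratio of females to males was -2.10 (SE 0.24, edgeR adjusted p = 4.47e-06), a level 4.30-fold lower in females. Within genotypes it was -3.17 (SE 0.50, edgeR adjusted p = 0.0015) in Cre controls and -3.09 (SE 0.50, edgeR adjusted p = 0.0009) in Egr1cKO. It did not pass in Egr1cKO controls, at -1.71 (SE 0.48, edgeR adjusted p = 0.122), or in wild type, at -0.45 (SE 0.46, edgeR adjusted p = 0.954).

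Chgb, the second chromogranin (chromosome 2, 132781278 to 132795079), showed the same arrangement over a narrower range. Male Cre controls had 2576, 2657 and 2739 CPM and female ones 912, 1084 and 1037 CPM. Male Egr1cKO had 2825, 2549 and 1931 CPM and female Egr1cKO 651, 932 and 758 CPM. Neither pair of groups overlapped. In Egr1cKO controls, males had 1951, 1593 and 2600 CPM and females 711, 990 and 1457 CPM. In wild type, males had 2416, 1715 and 2868 CPM and females 880, 3087 and 2632 CPM, with replicate 2 the highest of all 24 libraries. The average log2 ratio was -1.02 (SE 0.16, edgeR adjusted p = 8.38e-05).

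Pcsk1, the convertase gene used by corticotropes (chromosome 13, 75089826 to 75134861), had 354, 228 and 210 CPM in male Cre controls and 114, 59.2 and 104 CPM in female ones. In Egr1cKO it had 305, 319 and 204 CPM in males and 43.2, 85.2 and 101 CPM in females. In Egr1cKO controls it had 214, 115 and 152 CPM in males and 54.6, 54.8 and 91.6 CPM in females. Males stood above females without overlap in these 3 genotypes and in wild type too, as 5.49% of all genes did in wild type, where males had 155, 138 and 159 CPM and females 40.4, 125 and 125 CPM. The average log2 ratio was -1.32 (SE 0.19, edgeR adjusted p = 5.79e-05), or 2.49-fold lower in females.

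The trimming and amidating enzymes moved the same way by less. Cpe (chromosome 8, 64592542 to 64693054) had a male range of 696 to 1078 CPM (median 850) and a female range of 214 to 960 CPM (median 506), with a log2 ratio of -0.72 (SE 0.16, edgeR adjusted p = 0.0022). Pam (chromosome 1, 97795114 to 98095646) ranged from 336 to 586 CPM in males (median 476) and from 166 to 607 CPM in females (median 227), with -0.79 (SE 0.14, edgeR adjusted p = 0.00045). Exons of Pam are shared in position with B230216N24Rik, which had 12314 counts in all against 197663 for Pam. Among the partners and the remaining granin, Scg5 (chromosome 2, 113776362 to 113829121) had -0.64 (SE 0.12, edgeR adjusted p = 0.00051) and Scg3 (chromosome 9, 75643189 to 75684056) had -0.68 (SE 0.12, edgeR adjusted p = 0.00019). Pcsk1n (chromosome X, 7919822 to 7924410) fell by 0.36 on the log2 scale (SE 0.09, edgeR adjusted p = 0.0069), the smallest of the 8 called decreases. Its male wild type libraries, with 1332, 1522 and 1521 CPM, were above the female ones, with 802, 1050 and 993 CPM, while in Cre controls the sexes overlapped at 903 to 1191 CPM and 975 to 1132 CPM.

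Chga was the 1 gene without a call. Chga (chromosome 12, 102554969 to 102565028) had a male median of 2113 CPM and a female median of 1842 CPM, with an average log2 ratio of -0.24 (SE 0.12, 95% interval -0.50 to 0.02, edgeR adjusted p = 0.16). Pcsk2 (chromosome 2, 143546156 to 143816285) was higher in females, by 0.74 (SE 0.25, edgeR adjusted p = 0.0393). That call was lost when any 1 of 18 of the 24 libraries was left out (adjusted p up to 0.0872). It held only without male Egr1cKO control replicate 2, female Egr1cKO control replicate 3, male Egr1cKO replicate 3, female Egr1cKO replicate 1, male wild type replicate 1 or female Cre control replicate 2. The 8 decreases were called in all 24 such fits. In a model that includes the mitochondrial share Scg2 alone of them was called. In a contrast of the wild type and Cre control groups alone, taken from the fit to all 24 libraries, Scg2 and Pcsk1 were called. The unstranded reads do not separate Pcsk2 from its antisense transcripts Pcsk2os1 and Pcsk2os2, which had 5149 and 890 counts in all against 283238 for Pcsk2.

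The female decrease was uneven over genotypes. In Egr1cKO, 7 of the 10 genes were lower and 0 higher (Pcsk1, Cpe, Pam, Scg5, Chgb, Scg2 and Scg3), where 13.1% of all genes were called, 7.57% lower. In Cre controls, 3 were lower (Pcsk1, Chgb and Scg2), where 3.61% were called, 2.01% lower. Of these 3, Scg2 kept its call without any 1 library, Chgb kept it only without male replicate 1 (adjusted p up to 0.0939), and Pcsk1 lost it without each of the 6 (up to 0.118). In Egr1cKO, Pcsk1, Chgb and Scg2 kept their calls without any 1 library, whereas without female replicate 1 those 3 were the only calls left and without male replicate 1 there were 4. Cpe was also lost without male replicate 2 or female replicate 3, and Scg3 without male replicate 2 or 3 (adjusted p up to 0.103). The mitochondrial share was 8.73%, 9.13% and 10.4% in female Egr1cKO and 2.76%, 3.44% and 3.8% in male Egr1cKO, without overlap. In a model that includes it, 0 of the 10 genes were called between the sexes in Egr1cKO, with Scg2 at -1.14 (SE 0.44, edgeR adjusted p = 0.252) and Cpe at 0.17 (SE 0.30, edgeR adjusted p = 0.869). Sex and mitochondrial share cannot be told apart within this genotype. The model takes the slope on that share from differences within groups, which were widest in female wild type (SD 4.42).

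In Egr1cKO controls 0 of the 10 genes passed in edgeR, where 0.451% of all genes did. Of the 10, 9 had an unadjusted p under 0.05, DESeq2 called 5 lower, and the nearest were Scg3 at -0.96 (SE 0.23, edgeR adjusted p = 0.058) and Pam at -1.16 (SE 0.29, edgeR adjusted p = 0.0678). The 3 female libraries of that genotype were all below the 3 male ones for 9 genes, every gene but Pcsk2, an arrangement that 14.1% of all genes had. In wild type 0 passed in edgeR, where 0.283% of all genes did, 3 had an unadjusted p under 0.05, and DESeq2 called Pcsk1n lower.

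Female wild type replicates 2 and 3 stood apart from the other females. For Pcsk1, Cpe, Pam, Scg5, Chgb, Scg2 and Scg3, 10 of the 12 female libraries lay below the lowest male library, and the exceptions were in each case these 2. Of all 21927 genes, 188 (0.857%) had that order, which was described after the values were seen. The same 2 libraries had the lowest mitochondrial shares among the females, 2.13% and 2.7%, within the male range. The other 10 females had 3.5% to 10.4%. In a model that includes the mitochondrial share, the average sex difference had 1 call among the 10 genes, Scg2 at -1.17 (SE 0.23, edgeR adjusted p = 0.0045). Pcsk1 then had -0.85 (edgeR adjusted p = 0.109) and Chgb had -0.38 (edgeR adjusted p = 0.217).

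**Figure D3:**
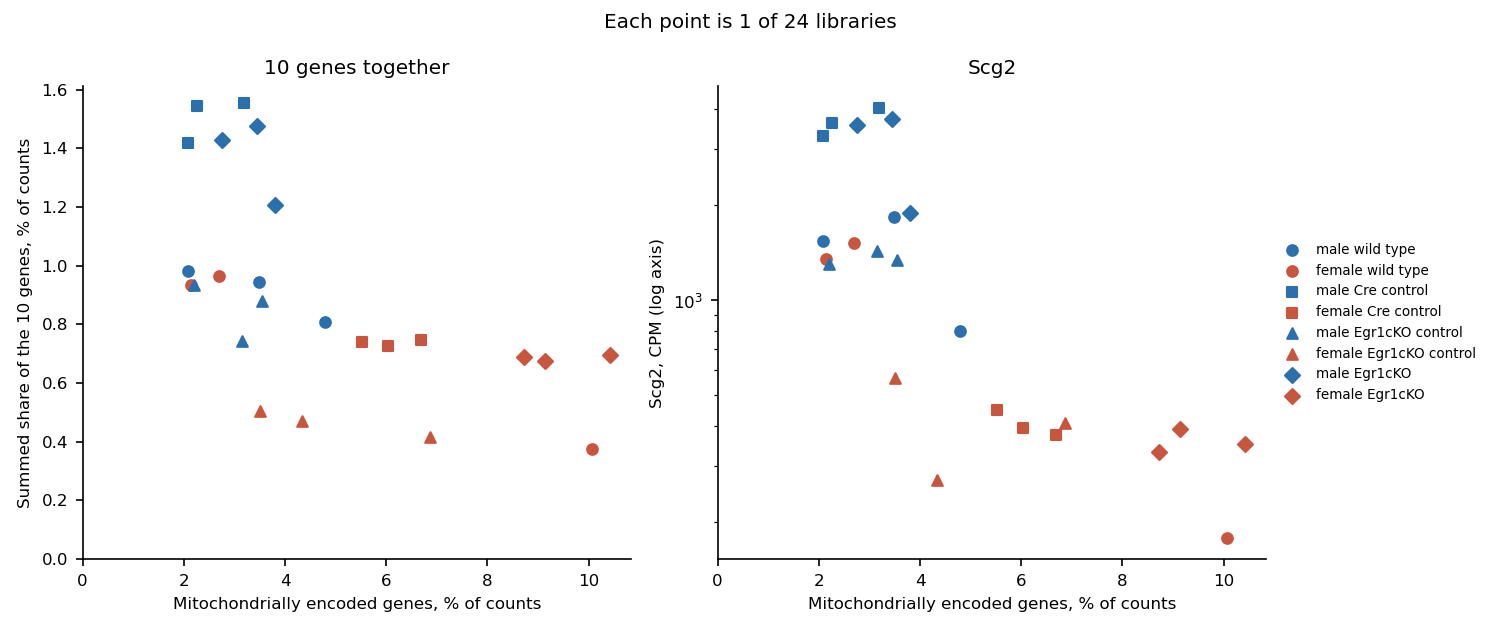
Summed share of the 10 genes (left, % of counts) and Scg2 level (right, CPM on a log axis) against the share of mitochondrially encoded genes (% of counts) in 24 libraries, coloured by sex with 1 marker shape per genotype. Female libraries extend to 10.4% on the horizontal axis, and female wild type replicates 2 and 3 lie among the males.

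Contrasts limited to each number series, taken from the fit to all 24 libraries, gave the same direction for all 10 genes. In the wild type and Cre control groups alone, Scg2 (-1.81, SE 0.34, edgeR adjusted p = 0.0044) and Pcsk1 (-1.08, SE 0.27, edgeR adjusted p = 0.0395) were lower in females and the other 8 did not pass. In the floxed groups alone the same 8 genes as in the average were lower, and Pcsk2 had 0.70 (edgeR adjusted p = 0.171). Markers of other cells also differed between the sexes. Of 8 posterior lobe markers tested, 7 were higher in females (summed level 250 to 594 CPM in females and 94.3 to 319 CPM in males), and a ninth, Hes5, was at 0 in female Egr1cKO controls and Egr1cKO. Lower in females were 3 of 5 gonadotrope markers (summed level 137 to 295 CPM in females and 705 to 2235 CPM in males), 3 of 5 thyrotrope markers, 3 of 5 somatotrope markers, 3 of 6 endothelial markers (119 to 192 CPM in females and 149 to 268 CPM in males), 2 of 8 stem and folliculostellate markers and 2 of 5 erythroid markers. Of 5 melanotrope markers, Pax7 and Tbx19 were higher in females and 0 were lower, and the summed level of the 4 other than Pomc was 415 to 2159 CPM in females and 285 to 1729 CPM in males. The melanotrope list shares Pomc and Tbx19 with the corticotrope list and Drd2 with the lactotrope list. Corticotrope (1 higher and 1 lower of 4), lactotrope (1 and 1 of 3) and leukocyte markers (2 and 1 of 8) differed in both directions. Their part in the differences of the 10 genes was not tested.

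The second comparison set libraries with Cre against those without, averaged over both sexes and both Egr1 alleles. Pcsk2 and Chga were higher with Cre, and the other 8 genes did not pass. Over all genes 6.89% were called, 2.8% higher. The median of the 10 genes was 0.07, beside -0.03 over all genes.

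In females, Pcsk2 had 302, 462 and 465 CPM in wild type and 1005, 714 and 734 CPM in Cre controls. It had 368, 198 and 134 CPM in Egr1cKO controls and 844, 1504 and 1928 CPM in Egr1cKO. Both pairs of female groups stood apart with Cre higher, as 8.02% of all genes did for Cre control against wild type and 9.57% for Egr1cKO against its control. In males it had 416, 197 and 99.2 CPM in wild type and 498, 372 and 566 CPM in Cre controls, and 88.0, 322 and 180 CPM in Egr1cKO controls and 415, 524 and 986 CPM in Egr1cKO. Only the male wild type and Cre control groups overlapped. Male Egr1cKO stood above its control, as 10.8% of all genes did. The averaged log2 ratio of levels with Cre to those without was 1.58 (SE 0.25, edgeR adjusted p = 0.00057), or 2.99-fold higher with Cre.

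Chga, which had no call between the sexes, had 2692, 2261 and 2672 CPM in female Cre controls and 2503, 2237 and 2810 CPM in female Egr1cKO. Without Cre it had 1284, 1081 and 1249 CPM in female wild type and 1447, 1171 and 904 CPM in female Egr1cKO controls. All 6 female libraries with Cre were above all 6 without, for Chga as for Pcsk2, an order that 1.25% of all genes had. In males, Chga had 2774, 2069 and 2027 CPM in Cre controls against 2158, 2272 and 1033 CPM in wild type, and 2224, 2246 and 3103 CPM in Egr1cKO against 1832, 1754 and 1454 CPM in Egr1cKO controls. Its averaged log2 ratio with Cre to without was 0.77 (SE 0.12, edgeR adjusted p = 0.0002), or 1.71-fold. Both genes kept this call without any 1 of the 24 libraries.

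**Figure D4:**
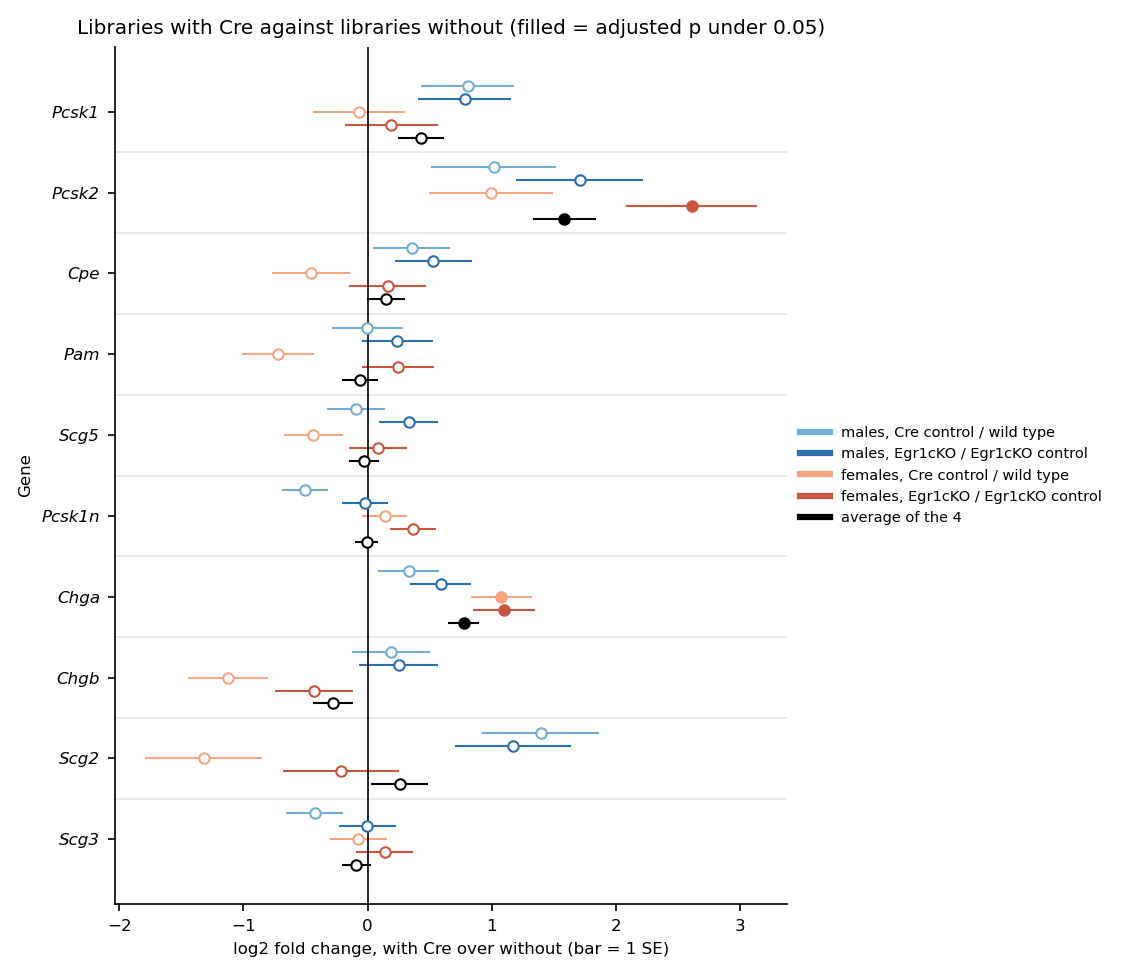
Log2 fold change of libraries with Cre over those without for the 10 genes, in each sex and Egr1 allele and averaged over the 4, with bars of 1 SE and filled points where the adjusted p is under 0.05. Pcsk2 and Chga lie to the right of 0 in each of the 4 comparisons, while Scg2 lies to the right in males (1.39 and 1.17) and to the left in females (-1.32 and -0.21).

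Taken by sex and allele, few genes passed. Female Egr1cKO against Egr1cKO control gave 2 higher and 0 lower, where 2.21% of all genes were called, 0.762% higher: Pcsk2 at 2.61 (SE 0.53, edgeR adjusted p = 0.0121) and Chga at 1.10 (SE 0.25, edgeR adjusted p = 0.0174). Both were lost without female Egr1cKO control replicate 2 or 3 or Egr1cKO replicate 3 (adjusted p up to 0.0784 and 0.0876). The mitochondrial share was 8.73%, 9.13% and 10.4% in female Egr1cKO and 4.33%, 6.87% and 3.5% in its control, without overlap. Genotype and mitochondrial share cannot be told apart in this comparison. A model that includes the share called more of the 10 genes here and for Egr1cKO beyond Cre in females, as listed in the last section. Female Cre control against wild type gave 1 higher, where 1.21% were called, 0.369% higher: Chga at 1.08 (SE 0.25, edgeR adjusted p = 0.0308). It was lost without any 1 of those 6 libraries other than wild type replicate 1 (adjusted p up to 0.132). Leaving out wild type replicate 1 leaves that group with replicates 2 and 3, which stood apart from the other females as described above. Against these, 5 further genes were lower in female Cre controls: Scg2 (-1.82), Chgb (-1.5), Pam (-1.11), Cpe (-0.89) and Scg5 (-0.71).

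In males 0 of the 10 genes passed in edgeR or DESeq2, for Egr1cKO against its control (0.041% of all genes called, 4 of the 10 with an unadjusted p under 0.05) or for Cre control against wild type (0.233% called, 3 of the 10). Male Pcsk2 had 1.71 (SE 0.51, edgeR adjusted p = 0.413) and 1.01 (SE 0.50, edgeR adjusted p = 0.479) in these comparisons. Male Scg2 had 1.17 (SE 0.47, edgeR adjusted p = 0.657) and 1.39 (SE 0.47, edgeR adjusted p = 0.288), with no overlap between the groups in either, as 10.8% and 11.1% of all genes had in that direction. On simulated counts for the female Egr1cKO comparison, 53% of genes changed by a log2 fold change of 1 and 96% of those changed by 1.5 were recovered, with 2 false calls. Each simulated gene had the spread typical of its level, and changes were placed in female Egr1cKO only. These shares are therefore not recovery rates for the 10 genes or for males.

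Tests of differences between these effects called 0 of the 10 genes in edgeR. For Egr1cKO beyond Cre, 0.00456% of all genes were called in females and 0% in males, with 2 and 0 of the 10 at an unadjusted p under 0.05 and 0 called by DESeq2 in either sex. Pcsk2 had 1.61 there in females (SE 0.70, 95% interval 0.12 to 3.11, edgeR adjusted p = 0.473) and Chga had 0.02 (SE 0.35, edgeR adjusted p = 0.9999). Without female wild type replicate 1, so with replicates 2 and 3 alone in that group, 4 genes passed (Cpe, Pam, Chgb and Scg2, all higher). For the interaction of sex and Egr1cKO, 0.0228% of all genes were called, with 1 of the 10 at an unadjusted p under 0.05 and 0 by DESeq2. For that of sex and Cre, 0.128% were called, with 4 of the 10 at an unadjusted p under 0.05 and 2 called lower by DESeq2 (Chgb and Scg2). Scg2 was nearest in edgeR, at -2.71 (SE 0.67, edgeR adjusted p = 0.0685). It passed together with Cpe, Pam and Chgb without female wild type replicate 1, again with replicates 2 and 3 alone in that group.

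Egr1cKO control against wild type, where floxed Egr1 and number series cannot be told apart, also gave 0 calls among the 10 genes in edgeR, as among all genes (0%). In females 5 of the 10 had an unadjusted p under 0.05, DESeq2 called Pam and Chgb lower, and the edgeR value of Pam was -1.10 (SE 0.29, edgeR adjusted p = 0.0996). Without female wild type replicate 1, 6 genes were lower in edgeR, with Pam at -1.49 (SE 0.19, edgeR adjusted p = 9.01e-06). In males 0 of the 10 had an unadjusted p under 0.05, and DESeq2 called 0.

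The Cre average changed with the libraries and groups used. Contrasts of part of the groups were taken from the fit to all 24 libraries. In that of the wild type and Cre control groups alone, Chga kept 0.70 (SE 0.17, edgeR adjusted p = 0.0435) and Pcsk2 had 1.01 (SE 0.35, edgeR adjusted p = 0.258). In that of the floxed groups alone, Pcsk2 had 2.16 (SE 0.37, edgeR adjusted p = 0.0027) and Chga 0.84 (SE 0.17, edgeR adjusted p = 0.0065). In the model that includes the mitochondrial share, 5 genes were higher with Cre: Pcsk2, Chga, Scg2 (0.77), Pcsk1 (0.68) and Cpe (0.48). Cell markers moved in the same comparison: 5 of 5 melanotrope markers were higher with Cre (Pomc, Oacyl, Pax7, Tbx19 and Drd2). So were 6 of 8 posterior lobe markers, while 5 of 5 somatotrope markers were lower. Of 4 corticotrope markers 2 were higher, Pomc and Tbx19, both also on the melanotrope list. Of 3 lactotrope markers, Drd2, also on that list, was higher and 2 were lower. Also higher were 2 of 5 thyrotrope markers, 3 of 8 stem and folliculostellate markers, and 1 each of 5 gonadotrope, 8 leukocyte and 6 endothelial markers. Of 5 erythroid markers 0 passed. The summed level of the melanotrope markers other than Pomc was 285 to 1253 CPM over the libraries without Cre and 977 to 2159 CPM over those with it. Their part in the Pcsk2 and Chga differences was not tested.

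Pcsk2 followed Pomc, the precursor that its product cuts. Over 24 libraries the log2 levels of both had Pearson's r = 0.972 and Spearman's rho = 0.966, each with a permutation adjusted p of 0.0001 over the 10 genes, from the smallest p that 100000 resamples can give. The resampling shuffled all 24 libraries freely. Libraries of 1 group share sex and genotype, so these p-values treat as independent what is partly shared. Without the 2 libraries farthest from the median of Pomc, r was 0.959. It was 0.940 in the unfloxed series, 0.991 in the floxed series, 0.960 in females and 0.977 in males. After subtraction of each group's mean it was 0.957, so libraries of 1 group that differed in Pomc differed in Pcsk2 as well. Male wild type is an example, with Pomc at 48090, 26180 and 8800 CPM and Pcsk2 at 416, 197 and 99.2 CPM.

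**Figure D5:**
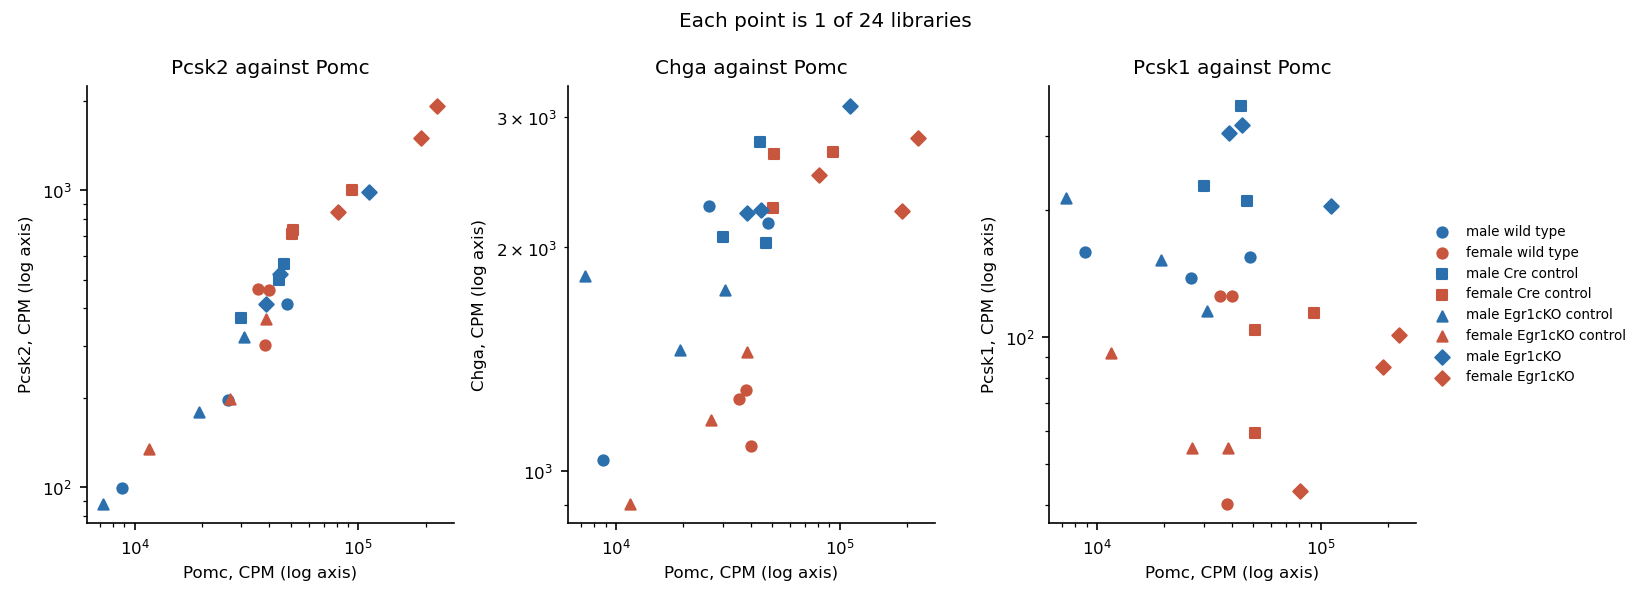
Levels of Pcsk2, Chga and Pcsk1 against Pomc in 24 libraries (CPM, log axes), coloured by sex with 1 marker shape per genotype. Pcsk2 runs along a line with Pomc (r = 0.972), Chga follows it more loosely (r = 0.649), and Pcsk1 shows no such line (r = -0.174).

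Per kilobase of exon, Pcsk2 stood at 1.24 to 2.40 per 1000 of Pomc in the 24 libraries, a range of 1.93-fold. Over the same libraries Pcsk2 itself ranged 21.9-fold and Pomc went from 7246 to 224400 CPM. Chga had r = 0.649 with Pomc (rho = 0.726, permutation adjusted p = 0.0028 and 0.00065), r = 0.707 without the 2 farthest libraries and r = 0.636 after subtraction of group means. Its ratio to Pomc ranged 21.5-fold. The other 8 genes did not pass. Chgb came nearest, with r = -0.445 (rho = -0.387, permutation adjusted p = 0.099 and 0.20). Pcsk1, which acts on the same precursor, had r = -0.174 (rho = -0.184, permutation adjusted p = 0.52 and 0.65). Within the sexes its r was 0.124 in females and 0.266 in males, while that of Chga was 0.815 and 0.784. The ratio of Pcsk1 to Pomc ranged 66.0-fold, from 0.105 to 6.95 per 1000.

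The balance of both convertases therefore differed widely between libraries. Pcsk2 per kilobase stood at 1.04 to 13.8 times Pcsk1 in females (median 5.15) and at 0.291 to 3.42 times in males (median 1.08). The highest values were those of the 3 female Egr1cKO libraries, 13.8, 12.5 and 13.5, and female Cre controls had 6.24, 8.56 and 4.99, the last below the 5.30 of female wild type replicate 1. Male Egr1cKO libraries had 0.964, 1.17 and 3.42, and male Cre controls 0.998, 1.16 and 1.91. Between granins, Chga stood at 0.732 to 7.32 times Scg2 in females (median 5.05) and at 0.512 to 2.59 times in males (median 0.825). Female wild type replicates 2 and 3 had 0.732 and 0.752 there, as in males, and replicate 1 had 6.58. These ratios describe the levels already compared and were not tested.

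Other genes of the pathway were counted from fixed lists. The genes named for a difference between the sexes in this and the next paragraph were chosen after their values were seen. Of 7 other proprotein convertases, Pcsk7 was higher in females (0.55, edgeR adjusted p = 0.0017) and Mbtps1 lower (-0.34, edgeR adjusted p = 0.0068). In the Cre average 0 of 7 passed in edgeR, with 0 at an unadjusted p under 0.05. For Cre control against wild type 0 passed, with 1 in females and 2 in males at an unadjusted p under 0.05. Of 11 other processing enzymes and copper transporters, Qpct, which closes peptide ends to pyroglutamate, was lower in females (-1.43, edgeR adjusted p = 0.00027), as was Ctsl, a cathepsin (-0.74, edgeR adjusted p = 5.53e-05). Atp7b, a copper transporter, and Rnpep, an aminopeptidase, were higher in females (1.14 and 0.34). Cpd, a relative of Cpe, was the 1 of the 11 higher with Cre (0.37, edgeR adjusted p = 0.0254). Of 4 other granin-like genes, Vgf alone passed, higher with Cre (1.57, SE 0.32, edgeR adjusted p = 0.0043) and higher in females (1.21, SE 0.31, edgeR adjusted p = 0.0108).

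Of 28 genes of the granule membrane and of exocytosis, 6 were lower and 4 higher in females, and 4 were higher and 3 lower with Cre. Rab27b and Rab3a, small GTPases of granules, had 0.81 and 0.32 with Cre, and Slc18a2, the vesicular monoamine transporter, had 0.59, while Cadps, which primes granules for release, had -0.50 (edgeR adjusted p = 0.0011, 0.0187, 0.0299 and 0.0019). In female Egr1cKO against its control, 2 of the 28 were higher, Slc18a2 (1.32) and Rab3a (0.68), and 1 was lower, Cadps (-0.80). Among 10 transcription factors, those higher with Cre included Neurod1 (0.96) and Isl1 (0.57), and Creb3l1 (2.22) was higher in females. Of the 19 hormone and neuropeptide precursors tested among 21 listed, 4 were higher and 4 lower in females, and 5 were higher and 3 lower with Cre. Pomc was higher with Cre (1.44, SE 0.28, edgeR adjusted p = 0.0022), and Prl was lower with Cre (-2.17) and higher in females (2.62).

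Over all tested genes with a window, those holding a motif were counted in both directions. Among 436 genes with TGACGTCA, 13.5% were lower and 13.1% higher in females, beside 13.0% and 11.3% of all 13838 with a window. Among 787 genes with GCGGGGGCG, 16.4% were lower and 10.9% higher in females. With Cre, 5.21% of those 787 were lower and 4.83% higher, beside 4.65% and 3.18% of all with a window, and of the 436, 2.52% were lower and 3.44% higher. These shares were not tested.

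The genes most like each of the 10 were ranked by Pearson's r of log2 levels over 24 libraries, among 10256 genes with a mean of at least 10 CPM, leaving out the 10 themselves, predicted genes and pseudogenes. Libraries of 1 group share their genotype and sex, so r is a description. Pcsk2 was closest to Pomc (0.972), Pkib (0.948) and Oacyl (0.948). Scg2 was closest to Pls3 (0.968), Cggbp1 (0.949) and Parm1 (0.946), Chgb to Slc7a14 (0.962), Tspan2 (0.947) and Pcmt1 (0.946), and Pcsk1 to Cd164 (0.923), Sumo2 (0.911) and Ctsl (0.910). Cpe was closest to Nptn (0.972), Pam to Cdipt (0.959), Scg5 to Atp6v1d (0.956) and Scg3 to Tmed10 (0.919). Pcsk1n had the loosest closest gene (Bag1, 0.824).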

How the data were processed

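Non-stranded RNA-seq libraries from 24 mouse pituitary samples were used. The deposited values are raw counts, whole numbers per Ensembl gene, and the authors applied no normalization to them. Per the submitters' processing notes, the tools were Trim Galore 3.8.2, FastQC and STAR 2.7.9 on GRCm38. The counting tool is not given in the sources used here. Of 35191 identifiers, 35077 matched GENCODE M21, the source of names, positions and exon lengths. Total counts were 15486069 to 26255343 per library.

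Groups came from the titles and genotype labels. edgeR 4.0.16 (R 4.3.3) fitted 1 mean per group to all 24 libraries by robust quasi-likelihood after TMM scaling and its low-count filter (21927 genes, 16 residual degrees of freedom, median biological coefficient of variation 0.337). The 16 contrasts were adjusted by Benjamini-Hochberg over all genes, with a threshold of 0.05. Log2 levels used a prior count of 2. Correlations used 100000 permutations over all 24 libraries, without regard to groups. The fit was tested on simulated counts. DESeq2 1.42.0 and the other settings are alternatives. All 10 genes were described in every comparison, with genes of fixed lists. The members and lists were chosen with earlier results of these data known.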

Additional observations from a re-analysis of the deposited data

How the results depend on the processing

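Counts of called genes among the 10 depended most on the low-count filter, the mitochondrial share and female wild type. Without the filter they were 3 for Egr1cKO in males, 5 for Cre in females, 3 for Cre in males, 1 for Egr1cKO beyond Cre in females, 1 for sex by Egr1cKO, 2 for sex by Cre, and, for females against males, 1 in wild type, 6 in Cre control and 5 in Egr1cKO control, with 4 for Egr1cKO control against wild type in females. With the mitochondrial share as a covariate they were 6 for Egr1cKO in females, 1 in males, 4 for Egr1cKO beyond Cre in females, 5 for the Cre average, 2 for Egr1cKO control against wild type in females, and, for females against males, 1 in Cre control, 0 in Egr1cKO and 1 in the average; Cpe in Egr1cKO then reversed to 0.17 (edgeR adjusted p = 0.869). With only the groups compared they were 1 for Egr1cKO in males, 0 for Cre in females, and 6 and 6 for females against males in Cre control and Egr1cKO control. With a minimum mean of 10 CPM they were 1 for sex by Cre and 1 for females against males in Egr1cKO control. DESeq2 gave 2 for Cre in females, 2 for sex by Cre, 1 and 5 for females against males in wild type and Egr1cKO control, and 2 for Egr1cKO control against wild type in females. Leaving out female wild type replicates 2 and 3, chosen with their values known and leaving that group 1 library assumed to vary like the others, gave 8 for females against males in wild type, 5 for the Cre average and 1 for Egr1cKO control against wild type in females, which the choice itself can set. Also added after seeing the data, contrasts of the wild type and Cre control groups alone gave 1 for the Cre average and 2 for the sex average. They were taken from the fit to all 24 libraries. Leaving out 1 library at a time gave 0 to 2 for Egr1cKO in females, 0 to 6 for Cre in females, 0 to 4 for Egr1cKO beyond Cre in females, 0 to 4 for sex by Cre, 1 to 2, 0 to 1 and 3 to 7 for females against males in Cre control, Egr1cKO control and Egr1cKO, 0 to 6 for Egr1cKO control against wild type in females, 2 to 3 for the Cre average and 8 to 9 for the sex average; the remaining counts stayed at 0. Scaling by RLE, or leaving hormone genes out of the totals, moved no count by over 1.5 times. For single genes and Pomc correlations with a call in the main fit, 503 values under the alternatives kept their direction and call. Another 79 lost their call and 1 reversed. Genes that gained a call under an alternative are not part of this tally. In each case the cause was not tested. No paired analysis was possible because the titles give the libraries their own numbers, none shared between groups.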
